A study of Mus musculus
Mus spretus with 18 samples.

Results

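Skipped exon (SE) events with an alternative exon of 31 to 60 bp were examined in F1 hybrid mice. An SE event is an exon together with the upstream and the downstream exon it can be joined to, and its percent spliced in (PSI) is the share of transcripts that contain the exon, written from 0 to 1. Members were the autosomal events whose exon, from start to end, was 31 to 60 bp long and which were expressed in 2 or more tissues, where expressed means 20 or more junction reads in both replicates. This left 4784 events of 47963 expressed autosomal SE events of any length (9.97%), with 3919 distinct exons in 2925 genes. Of the distinct exons, 696 took part in 2 or more events with different neighbouring exons, so these events share reads.

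The samples came from crosses of female C57BL/6J, an inbred house mouse, with male SPRET/EiJ, an inbred strain derived from wild Mus spretus, so that each cell carries 1 allele of each strain. Cerebral cortex, heart, kidney, lung, spleen and liver of female mice aged 8 weeks, taken from 2 animals, and embryonic stem cells (ESC) of the same cross, cultured with 2i and LIF as 2 independent clones, were sequenced with 2 replicates each, 14 libraries in all. Liver differs in its labels, which name other strains, and was taken as F1 liver because the Methods describe it so. The liver data came from an earlier study of the authors, who state that the animals were the same. In liver, tissue and study therefore cannot be told apart. Fibroblasts of the same cross, a cell line, were treated for 4 h with pladienolide B at 0.1 µM, an inhibitor of the SF3B complex of the spliceosome, or with DMSO, the solvent, with 2 replicates each.

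A cassette exon is joined into the mRNA when the spliceosome pairs across it, from the splice site at its start to the one at its end. In a short exon these sites lie close to each other, and such exons often depend on enhancers in the flanking introns and on tissue-restricted RNA-binding proteins such as Rbfox, Mbnl, Ptbp and nSR100. Neuronal and muscle programs of short exons are known in genes of the synapse, the cytoskeleton, membrane traffic and the sarcomere. An exon whose length is a multiple of 3 bases can be skipped without a shift of the reading frame.

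Junction reads over all autosomal SE events ranged from 45055286 to 128494506 per tissue library and from 121091735 to 144154268 per fibroblast library. C57BL/6J alleles received between 10362124 and 46565133 of these reads per tissue library, and SPRET/EiJ alleles between 10129390 and 42791636. Of 33 tissue markers, 32 had their highest mean expression in the tissue of the label, the exception being the fibroblast marker Thy1, which had 5.62 TPM (a length-normalised expression level) after DMSO and 1008 TPM in cortex. The 2 ESC clones stood apart, since their PSI differed by more than 0.1 in 374 expressed members (11.4%), against 3.82% of members in kidney and 7.57% in heart, the lowest and the highest share among organs. PSI of a tissue is a mean over its cells, so a change in the mixture of cell types and a change within cells cannot be told apart.

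Most short exons were included everywhere. In 3010 of the 4784 members (62.9%, against 72.6% of all events) all libraries of the expressing tissues had a PSI above 0.9. In 204 (4.26%, against 3.07%) all were below 0.1. High inclusion throughout was thus less frequent than among all events. Median PSI of members ran from 0.971 in heart to 0.981 in kidney. Cortex had the largest share of members at a PSI of 0.1 to 0.9 (23.9%), followed by heart with 22.7%, and in the other tissues this share lay between 17.7% in kidney and 18.7% in liver and spleen. Replicates were close, with a median difference in PSI between 0.00789 in kidney and 0.0148 in ESC.

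How far the short exons vary across tissues was described by the switch score, the difference between the highest and the lowest tissue mean of PSI. By this score 3695 members (77.2%) were Non-Differential (under 0.1), 391 (8.17%) Low (up to 0.2), 215 (4.49%) Moderate-Low (up to 0.3), 210 (4.39%) Moderate-High (up to 0.5) and 273 (5.71%) Switch-Like (0.5 or more). Among all expressed events 84.7% were Non-Differential. The 273 Switch-Like events lie on 248 exons in 222 genes. Switch-Like events made up 2.81% of all expressed events, 26.0% of the 892 events with an exon of 30 bp or less, and 1.96% of the 40406 events with an exon of 61 bp to under 300 bp. These shares are descriptions without a test, and p-values given below measure the spread between 2 libraries a group.

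**Figure D1:**
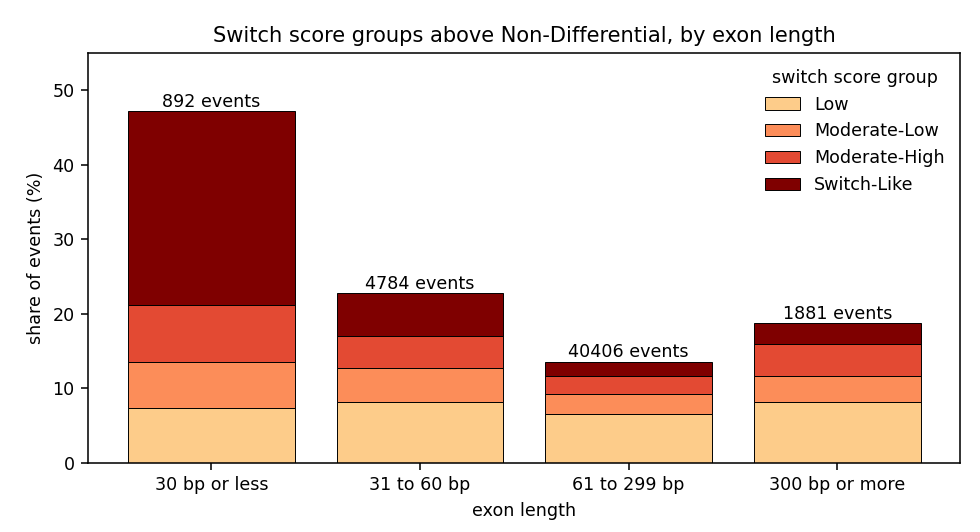
Stacked bars give the share of events (%, y axis) in the switch score groups Low to Switch-Like for 4 classes of exon length (x axis), with the number of events above each bar, and the remainder of each class is Non-Differential. The Switch-Like share was 26.0% at 30 bp or less, 5.71% at 31 to 60 bp, 1.96% at 61 bp to under 300 bp and 2.87% at 300 bp or more.

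Within the class the share of Switch-Like events fell with length, from 11.2% of 1030 events at 31 to 40 bp to 4.65% of 1483 at 41 to 50 bp and 3.92% of 2271 at 51 to 60 bp. At the lower limit, 22 of 186 events with an exon of 28 to 30 bp (11.8%) and 40 of 272 with one of 31 to 33 bp (14.7%) were Switch-Like, and at the upper limit 23 of 711 events at 58 to 60 bp (3.23%) and 22 of 813 at 61 to 63 bp (2.71%). Neither limit of the class therefore coincided with a step in this share. The share also rose with the number of expressing tissues, from 1.45% of 1380 members expressed in 2 tissues to 12.6% of 983 expressed in all 7, and a score over more tissues has more chances to be large.

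A length that keeps the reading frame was more frequent in exons with a larger switch score. Counting each distinct exon once, 1793 of 3919 (45.8%) had a length divisible by 3. This share was 42.4% in Non-Differential, 46.8% in Low, 52.5% in Moderate-Low, 64% in Moderate-High and 79.8% in Switch-Like exons. In Switch-Like exons of 30 bp or less it was 94.5%, and in those of 61 bp to under 300 bp it was 67.8%, so that the short exons lay between both. Introns next to Switch-Like exons had a median length of 2295 bp upstream and 2050 bp downstream, against 1618 bp and 1446 bp for Non-Differential exons. These medians were 2254.5 bp and 2374.5 bp for Low, 1810 bp and 2112.5 bp for Moderate-Low, and 1814.5 bp and 1964 bp for Moderate-High exons. Intron length thus did not rise steadily with the switch score.

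Differences between tissues were tested per event with a quasi-binomial model over all expressing tissues, with Benjamini-Hochberg adjustment over all events. An event was called with an adjusted p under 0.05 and a switch score of at least 0.1. Of 4784 members 760 were called (15.9%), on 676 exons, against 9.48% of all 47963 events, 41% of events of 30 bp or less and 7.96% of events of 61 bp to under 300 bp. All 273 Switch-Like members were called, and in each the 2 replicates of the highest tissue lay above both of the lowest. For tissue differences in inclusion without both ESC libraries, 712 members were called, of 4156 that remained, and by switch score groups 5.75% of these were Switch-Like.

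Cortex was the tissue of highest PSI in 127 of the 264 Switch-Like members expressed there (48.1%) and of lowest PSI in 55 (20.8%). Heart was highest in 64 of 234 (27.4%) and lowest in 27 (11.5%). ESC, spleen, kidney and lung were more often lowest than highest, with 56 against 24 in ESC, 47 against 15 in spleen, 38 against 11 in kidney and 26 against 9 in lung, and liver was lowest in 24 and highest in 23. The most frequent pairs were cortex above ESC (32 members), cortex above spleen (28) and cortex above kidney (22). The highest and lowest tissues were counted for members only, not for Switch-Like events of other lengths. These counts therefore do not show whether the lean to cortex is particular to short exons.

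Exons with large switch scores went from near full inclusion to near full skipping. Several of them belong to genes of vesicle traffic, the membrane skeleton and myosins, and each is given with its position in the mm10 build as the files annotate it. Exons are named here and below from 1 event per gene, the one with the most junction reads, so that other events with larger values, such as a 33 bp exon of Clip1 with a switch score of 0.956, are not shown. Whether these exons are coding was not read here.

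A 47 bp exon of Napb (ENSMUSG00000027438, chr2:148707159-148707205, minus strand), which encodes beta-SNAP, a factor that takes SNARE complexes apart after vesicle fusion, had the largest switch score (0.975, adjusted p = 6.3e-11 between tissues). Its PSI was 0.996 and 0.994 in cortex, 0.0233 and 0.317 in heart, 0 and 0.0397 in kidney, 0.224 and 0 in lung, and 0.0644 and 0.22 in ESC. Both cortex values lay above every other library, and the reads per library ran from 22 to 5947. The event was not expressed in spleen and liver.

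Epb4.1l1, which encodes protein 4.1N, a link between membrane proteins and the spectrin and actin skeleton, had a 36 bp exon (ENSMUSG00000027624, chr2:156511785-156511820, plus strand) with a PSI of 0.957 and 0.968 in cortex. In the other 12 libraries it lay between 0.0132 in one liver replicate and 0.16 in one ESC replicate. The groups did not overlap, and cortex exceeded the mean of the other tissues by 0.89 (SE 0.027, adjusted p = 7.6e-18). A 39 bp exon of Exoc7 (ENSMUSG00000020792, chr11:116293275-116293313, minus strand), a subunit of the exocyst that tethers vesicles to the plasma membrane, had a PSI of 0.914 and 0.912 in cortex and 0.23 and 0.22 in heart. In the remaining tissues it was 0.0316 or lower. Soga2, a microtubule-associated protein gene, carried a 57 bp exon (ENSMUSG00000052105, chr17:66340484-66340540, minus strand) with a PSI of 0.897 and 0.924 in cortex, 0.0128 and 0 in heart and 0.0025 and 0 in lung, the only tissues in which it was expressed.

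Another group of exons was high in heart. Prune2, a gene of a BCH domain protein, had a 36 bp exon (ENSMUSG00000039126, chr19:17211678-17211713, plus strand) with a PSI of 0.977 and 0.992 in heart and 0.0555 and 0.0424 in cortex, and it was expressed in no other tissue. For Ndrg4, a member of the NDRG family found in heart and brain, the 39 bp exon (ENSMUSG00000036564, chr8:95712325-95712363, plus strand) had a PSI of 0.977 and 0.973 in heart, 0.875 and 0.873 in cortex, 0.578 and 0.468 in lung, 0.0298 and 0.111 in kidney and 0.00539 and 0 in ESC. Heart and cortex thus lay on one side and kidney and ESC on the other, with lung between them. A 45 bp exon of Myo18a (ENSMUSG00000000631, chr11:77854678-77854722, plus strand), an unconventional myosin, had a PSI of 0.983 and 0.984 in heart, 0.957 and 0.965 in ESC and 0.752 and 0.713 in lung. It was lowest in cortex, at 0.0748 and 0.057.

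For Ryr2, the calcium release channel of cardiac muscle, a 36 bp exon (ENSMUSG00000021313, chr13:11647702-11647737, minus strand) had a PSI of 0.932 and 0.942 in heart, 0.981 and 0.945 in ESC and 0 and 0.00466 in cortex. Atp5c1, which encodes the gamma subunit of the mitochondrial ATP synthase, showed the opposite direction in heart. Its 37 bp exon (ENSMUSG00000025781, chr2:10056770-10056806, minus strand) had a PSI of 0.0124 and 0.0158 in heart. In all other tissues the PSI was at least 0.656, and it reached 0.974 in kidney and liver, with 3749 or more reads per library. Heart was lower than the mean of the others by 0.881 (SE 0.019, adjusted p = 1.2e-20), although the ESC clones differed, with 0.748 and 0.939.

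The remaining 3 named exons were in Gm10499, Myo9b and Cobll1. A 48 bp exon of the predicted gene Gm10499 (ENSMUSG00000073403, chr17:36142332-36142379, minus strand) had a PSI of 0.949 and 0.959 in ESC and at most 0.135 in the 10 libraries of 5 organs, and was not expressed in cortex. Without ESC its switch score was 0.0887, under the limit of a call. A 48 bp exon of Myo9b (ENSMUSG00000004677, chr8:71358616-71358663, plus strand), an unconventional myosin, had a PSI of 0.0677 and 0.0622 in spleen, 0.321 and 0.388 in kidney and between 0.689 and 0.981 elsewhere. Cobll1, a gene of an actin-binding protein, had a 39 bp exon (ENSMUSG00000034903, chr2:65132496-65132534, minus strand) with a PSI of 0.907 and 0.927 in liver and 0.836 and 0.779 in kidney, and of at most 0.148 in the other tissues.

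**Figure D2:**
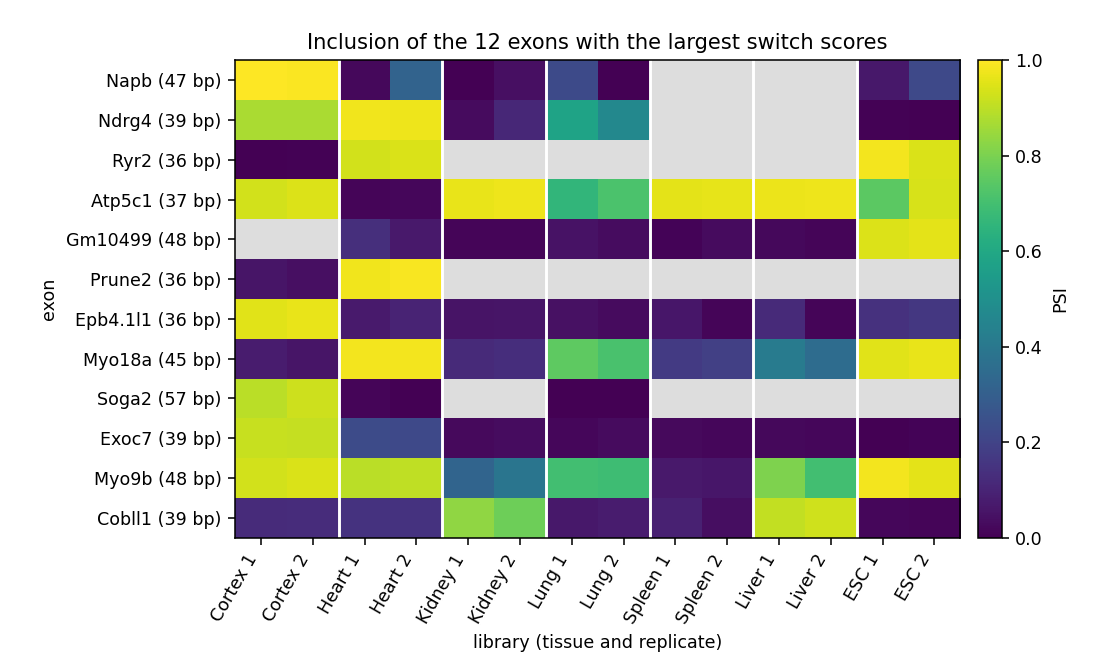
Each row is 1 of the 12 exons with the largest switch scores when 1 event per gene, that with the most junction reads, is kept, and each column 1 of the 14 tissue libraries, with colour giving PSI from 0 (dark) to 1 (yellow) and grey where the event was not expressed. Replicates of a tissue share their colour in most rows, and the yellow fields move from cortex (Napb, Epb4.1l1, Soga2, Exoc7) to heart (Prune2, Ndrg4, Myo18a), ESC (Gm10499) and liver (Cobll1).

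To find the tissue in which a short exon departs from the others, the mean PSI of each tissue was set against the unweighted mean of the other expressing tissues. Calls needed an adjusted p under 0.05 and a difference of at least 0.1, and the 7 comparisons share libraries. In cortex 412 of 2496 members were called (16.5%, against 9.68% of all events), 250 higher (10.0%, against 5.33%) and 162 lower (6.49%, against 4.34%). In heart 270 of 2241 were called (12%, against 7.22%), 164 higher (7.32%, against 3.71%) and 106 lower (4.73%, against 3.51%), the latter 69 without heart replicate 2. Cortex and heart had the largest shares of higher calls among members. Liver had 146 of 1832 (7.97%, against 4.49%), 80 higher (4.37%, against 2.35%) and 66 lower (3.60%, against 2.13%).

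The remaining tissues leaned to the other side. Kidney had 198 of 2833 members called (6.99%, against 3.9%), 54 higher (1.91%, against 1.41%) and 144 lower (5.08%, against 2.48%). Lung had 159 of 2683 (5.93%, against 3.36%), 57 higher (2.12%, against 1.31%) and 102 lower (3.8%, against 2.05%). Spleen had 178 of 2542 (7.00%, against 4.32%), 45 higher (1.77%, against 1.45%) and 133 lower (5.23%, against 2.88%). ESC had 267 of 2666 (10.0%, against 5.12%), 84 higher (3.15%, against 2.09%) and 183 lower (6.86%, against 3.03%). In each of the 7 tissues the share called among short exons exceeded that of all events, while it was below that of exons of 30 bp or less, of which between 23.8% (liver) and 46.3% (cortex) were called. Among all members tested the median difference was close to 0, from -0.00123 in ESC to 0.00208 in liver.

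**Figure D3:**
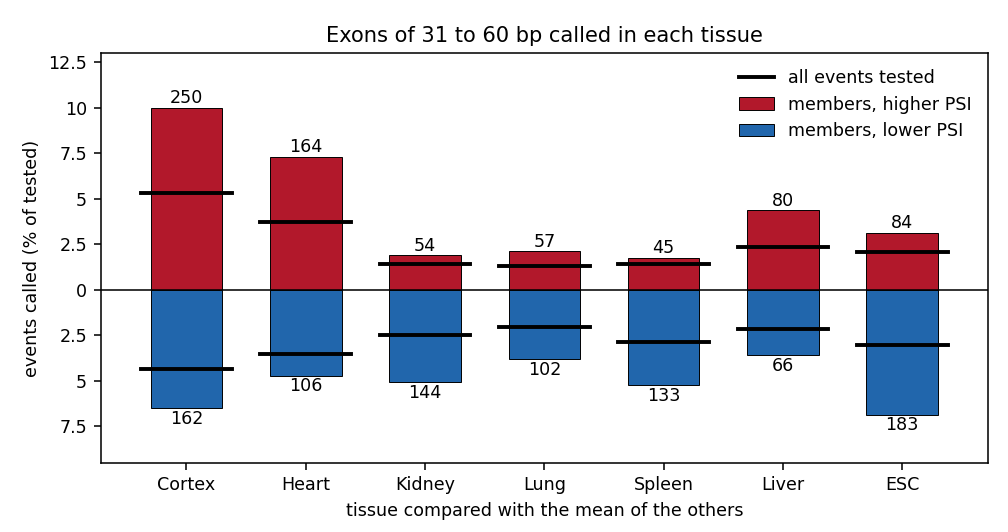
Bars give the share of tested members (%, y axis) called with a higher PSI (red, upward) or a lower PSI (blue, downward) in each tissue (x axis) than in the mean of the others, with the number of events at each bar, and black lines mark the share of all events tested. Higher calls outnumber lower ones in cortex (250 against 162), heart (164 against 106) and liver (80 against 66), and lower calls outnumber higher ones in kidney, lung, spleen and ESC.

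The share of called exons with a length divisible by 3 was counted in each direction. It was 76.2% of 235 exons higher and 56.2% of 153 exons lower in cortex, 76.7% of 150 higher and 65.0% of 100 lower in heart, and 64% of 75 higher and 87.1% of 62 lower in liver. In kidney it was 58.8% of 51 higher and 87.6% of 137 lower exons, in spleen 55.8% of 43 and 75.6% of 127, and in ESC 66.7% of 78 and 76.7% of 180. In lung it was 83.9% of 56 higher and 78.9% of 95 lower exons. Higher calls thus had the larger share in cortex, heart and lung, and lower calls in the other 4 tissues. These are counts of distinct exons without a test.

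In cortex, the decreases named by this rule were in Ryr2, Tom1l2 and Akap13. The Ryr2 exon of 36 bp was lower in cortex by 0.948 than the mean of heart and ESC (SE 0.045, adjusted p = 1.55e-12). A 60 bp exon of Tom1l2 (ENSMUSG00000000538, chr11:60232898-60232957, minus strand), an endosomal adaptor, had a PSI of 0.161 and 0.152 in cortex and of 0.9 to 0.994 in the other 12 libraries, and these groups did not overlap. Akap13, a scaffold for protein kinase A, had a 54 bp exon (ENSMUSG00000066406, chr7:75679820-75679873, plus strand) with a PSI of 0.144 and 0.161 in cortex, 0.976 and 1 in heart and 0.86 and 0.926 in ESC, at 23 to 93 reads per library.

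In heart, the increases named by this rule were in Acss2, Mlf1 and Mpp6. A 39 bp exon of Acss2 (ENSMUSG00000027605, chr2:155551190-155551228, plus strand), which makes acetyl-CoA from acetate, had a PSI of 0.899 and 0.85 in heart and of at most 0.113 in the other 12 libraries, a difference of 0.825 (SE 0.015, adjusted p = 5.3e-22). Mpp6, a membrane scaffold of the MAGUK family, had a 42 bp exon (ENSMUSG00000038388, chr6:50176877-50176918, plus strand) with a PSI of 0.942 in both heart replicates, 0.265 and 0.249 in cortex and 0.0442 to 0.244 elsewhere. A 45 bp exon of Mlf1 (ENSMUSG00000048416, chr3:67390978-67391022, plus strand) had a PSI of 0.849 and 0.857 in heart and of at most 0.0855 in cortex, lung and ESC. Besides Atp5c1, the decreases named in heart were a 57 bp exon of Lmo7 (ENSMUSG00000033060, chr14:101915688-101915744, plus strand), at 0.263 and 0.3 in heart against 0.785 or more in the other expressing tissues, and a 54 bp exon of Clta.

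Clta, which encodes the light chain A of clathrin, shows how far PSI depends on the neighbouring exon. Its 54 bp exon (ENSMUSG00000028478, chr4:44030215-44030268, plus strand) precedes a 36 bp exon (chr4:44031400-44031435), and both can be skipped. Joined to the 36 bp exon, the 54 bp exon had a PSI of 0.173 and 0.212 in heart and of 0.707 or more in all other libraries. Joined to the exon that follows the 36 bp exon, the 54 bp exon had a PSI of 0.712 and 0.73 in cortex, 0.0972 and 0.101 in heart and at most 0.0238 in the other 10 libraries. Among the 696 exons with 2 or more member events, 67 had at least 1 Switch-Like event and 16 had no other kind, with a median range of the switch score of 0.0347 between the events of an exon.

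Some exons were high in both kidney and liver. The Cobll1 exon was higher by 0.584 in kidney (SE 0.028, adjusted p = 3.4e-13) and by 0.712 in liver (SE 0.046, adjusted p = 8.1e-11). A 39 bp exon of Myo6 (ENSMUSG00000033577, chr9:80296643-80296681, plus strand), the myosin that moves toward the minus end of actin filaments, had a PSI of 0.822 and 0.832 in kidney, 0.852 and 0.732 in liver and at most 0.166 elsewhere. The 39 bp exon of Sec31a (ENSMUSG00000035325, chr5:100369596-100369634, minus strand), a part of the COPII coat of vesicles that leave the endoplasmic reticulum, had a PSI of 0.808 and 0.824 in liver, 0.559 and 0.497 in kidney and at most 0.14 elsewhere.

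Other exons set 1 of these organs apart. For Dennd1b, which activates Rab GTPases, a 60 bp exon (ENSMUSG00000056268, chr1:139059067-139059126, plus strand) had a PSI of 0.84 and 0.936 in kidney, 0.506 and 0.495 in ESC and at most 0.176 in cortex, heart and spleen. A 39 bp exon of Nprl3 (ENSMUSG00000020289, chr11:32259217-32259255, minus strand), a subunit of the GATOR1 complex that restrains mTORC1, had a PSI of 0.854 and 0.89 in liver and at most 0.489 elsewhere. In kidney a 57 bp exon of the calsyntenin gene Clstn1 (ENSMUSG00000039953, chr4:149641658-149641714, plus strand) fell to 0.155 and 0.163, against 0.981 and 0.986 in cortex and 0.992 and 0.994 in heart. Both other decreases named in kidney lost their call when a kidney replicate was left out. A 54 bp exon of Kcnip2, a subunit of Kv4 potassium channels (ENSMUSG00000025221, chr19:45796279-45796332), differed by -0.568 (adjusted p = 0.021), and the adjusted p was 0.201 without replicate 1 and 0.364 without replicate 2 of kidney. A 51 bp exon of 4932438A13Rik (ENSMUSG00000037270, chr3:36992677-36992727) differed by -0.588 (adjusted p = 0.007), and its adjusted p was 0.142 without replicate 1.

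Liver decreases included exons of a junction scaffold and of a splicing regulator. Magi1, a scaffold of cell junctions, had a 36 bp exon (ENSMUSG00000045095, chr6:93769508-93769543, minus strand) with a PSI of 0.244 and 0.31 in liver, 0.45 and 0.335 in kidney and at least 0.586 elsewhere. Mbnl1, a regulator of splicing, had a 36 bp exon (ENSMUSG00000027763, chr3:60621423-60621458, plus strand) with a PSI of 0.173 and 0.11 in liver, 0.343 and 0.342 in heart and 0.47 to 0.923 elsewhere, and its own inclusion thus differed by -0.471 from the mean of the others (SE 0.065, adjusted p = 2.8e-05). The third, a 54 bp exon of Plekha6 (ENSMUSG00000041757, chr1:133275812-133275865), had a PSI of 0.0364 and 0.138 in liver and 0.0895 and 0.123 in kidney, so these tissues overlapped. Its adjusted p of 0.0022 became 0.143 without liver replicate 1.

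In spleen one of the named increases was in an immune gene. A 57 bp exon of Fcgr2b (ENSMUSG00000026656, chr1:170963409-170963465, minus strand), the inhibitory Fc receptor of B cells, had a PSI of 0.822 and 0.796 in spleen and of at most 0.245 in cortex, heart, kidney, lung and liver. Arap1, a regulator of Arf GTPases, had a 33 bp exon (ENSMUSG00000032812, chr7:101404933-101404965, plus strand) at 0.587 and 0.518 in spleen, 0.183 and 0.169 in lung and at most 0.0566 elsewhere. The 33 bp exon of the adhesion gene Cadm1 (ENSMUSG00000032076, chr9:47829377-47829409) had a PSI of 1 and 0.882 in spleen and at most 0.767 elsewhere, and its adjusted p of 0.0011 became 0.0618 without spleen replicate 1. In another event of this Cadm1 exon, with other neighbouring exons, cortex was highest and lung lowest, with a switch score of 0.745. The spleen pattern is thus that of 1 event.

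Spleen decreases were found in Myo9b and in a pair of genes better known from neurons and muscle. A 39 bp exon of Utrn (ENSMUSG00000019820, chr10:12415451-12415489, minus strand), the dystrophin relative utrophin, had a PSI of 0.274 and 0.348 in spleen and of at least 0.814 in the other 12 libraries. Ptbp2, a splicing repressor of neurons, had a 34 bp exon (ENSMUSG00000028134, chr3:119724612-119724645, minus strand), a length that shifts the frame when skipped, with a PSI of 0.951 and 0.973 in cortex, 0.873 and 0.869 in heart and 0.884 and 0.872 in ESC. Kidney, lung and liver lay between 0.183 and 0.517, and spleen was lowest at 0.0953 and 0.032.

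In lung the named increases were in Spag9, Sytl2 and Mctp1. Spag9, a scaffold of JNK signalling, had a 39 bp exon (ENSMUSG00000020859, chr11:94113263-94113301, plus strand) at 0.845 and 0.859 in lung and 0.875 and 0.871 in heart, against at most 0.361 elsewhere. A 48 bp exon of Sytl2 (ENSMUSG00000030616, chr7:90388868-90388915), an effector of Rab27, was at 0.895 and 0.852 in lung and 0.945 and 0.953 in heart, against at most 0.66 in cortex, kidney and spleen. The 39 bp exon of Akap2 (ENSMUSG00000038729, chr4:57886289-57886327, plus strand), another scaffold of protein kinase A, was nearly absent in lung, with 0.00396 and 0.00351, against 0.804 and 0.785 in cortex and 0.284 and 0.221 in heart. Kidins220, a scaffold at neurotrophin receptors, had a 57 bp exon (ENSMUSG00000036333, chr12:25041246-25041302) at 0.028 and 0.037 in lung, 0.387 and 0.512 in cortex and 0.647 and 0.62 in heart. In another event of this Kidins220 exon, with other neighbouring exons, heart was highest and cortex lowest, with a switch score of 0.829. There the mean PSI in cortex was 0.0923 on the C57BL/6J allele and 0.144 on the SPRET/EiJ allele.

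Calls for 2 lung exons did not hold throughout. A 60 bp exon of Mctp1 (ENSMUSG00000021596, chr13:76741294-76741353) was at 0.723 and 0.595 in lung and at most 0.153 in cortex and spleen, a difference of 0.565 (adjusted p = 0.00067), but with no minimum beyond 1 read the difference was 0.283 (adjusted p = 0.494). For Cacna1c, the pore subunit of an L-type calcium channel, the 33 bp exon (ENSMUSG00000051331, chr6:118630399-118630431) was at 0.503 and 0.483 in lung against 0.965 or more in cortex and heart. The adjusted p of 0.0087 became 0.317 without replicate 1 and 0.0575 without replicate 2 of lung, and 0.322 with no minimum beyond 1 read.

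In ESC, a 54 bp exon of Mbnl2 (ENSMUSG00000022139, chr14:120395712-120395765, plus strand), a relative of Mbnl1, had a PSI of 0.826 and 0.944 against at most 0.435 in the organs, a difference of 0.652 (SE 0.032, adjusted p = 1.1e-12). A second exon of Ryr2, of 50 bp (chr13:11676198-11676247), had a PSI of 0.37 and 0.0851 in ESC against 0.906 or more in cortex and heart (adjusted p = 4.2e-07), while the difference of -0.504 with no minimum beyond 1 read had an adjusted p of 0.089. Numa1, a protein of the spindle poles, had a 42 bp exon (ENSMUSG00000066306, chr7:102002295-102002336, plus strand) at 0.36 and 0.0198 in ESC, 0.635 and 0.621 in kidney and 0.876 or more elsewhere. The 57 bp exon of Col13a1 (ENSMUSG00000058806, chr10:61891208-61891264), a transmembrane collagen, was at 0.244 and 0.0871 in ESC against 0.691 or more in lung, spleen and liver. In Numa1 and in this Ryr2 exon the ESC clones differed from each other by more than 0.2, and both still lay below every other library.

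Genes were grouped by textbook function with lists of gene symbols, and members in each list were counted beside all events of the list. Of 43 events in sarcomere genes, which here include Ryr2 and the Camk2 kinases, 17 were called between tissues (39.5%, against 15.9% of all members) and 14 were Switch-Like. Heart was higher in 11 of 29 tested and lower in 2, and cortex higher in 9 of 27 and lower in 3. Over exons of all lengths in these genes, heart was higher in 35 of 104 and lower in 9. Cortex was higher there in 24 of 92 and lower in 14. In cytoskeleton and motor genes 46 of 132 were called (34.8%), with 21 of 79 higher and 12 lower in cortex and 5 of 88 higher and 19 lower in kidney. Over all lengths, cortex was higher in 102 of 514 and lower in 69, and kidney higher in 33 of 505 and lower in 70. Synaptic and neuronal surface genes had 24 of 72 called (33.3%), with 12 of 37 higher and 3 lower in cortex. Over all lengths, 52 of 259 were higher and 25 lower in cortex. Among all members 10.0% were higher and 6.49% lower in cortex, 7.32% and 4.73% in heart, and 1.91% and 5.08% in kidney.

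The other lists lay closer to all members. RNA binding and splicing genes had 25 of 115 called (21.7%), among them Ptbp2, Mbnl1 and Mbnl2, with 5 of 69 higher and 4 lower in cortex. Membrane trafficking genes had 32 of 155 called (20.6%), with 16 of 78 higher and 6 lower in cortex and 3 of 87 higher and 13 lower in ESC. Kinases and regulators of GTPases had 33 of 171 called (19.3%), with 17 of 97 higher and 6 lower in cortex. Chromatin and transcription genes had 19 of 166 called (11.4%), with 4 of 105 higher and 9 lower in cortex. In the same lists over exons of all lengths the called share was 36% for sarcomere, 24.1% for cytoskeleton, 23.5% for synaptic, 15% for RNA binding, 10.8% for trafficking, 12.8% for kinase and 11.8% for chromatin genes. Cortex was then higher in 37 of 461 and lower in 25 for RNA binding genes. For trafficking genes cortex was higher in 76 of 723 and lower in 30, and ESC higher in 19 of 832 and lower in 46. For kinase genes cortex was higher in 78 of 807 and lower in 49, and for chromatin genes higher in 55 of 1007 and lower in 53. Among all members 3.15% were higher and 6.86% lower in ESC. Directions in the other tissues are not given here.

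Some short exons had an intermediate PSI in all 7 tissues. The 4 members with the smallest switch scores among those with a mean PSI of 0.2 to 0.8 were exons of Snrk, Tor1aip1, Zfp512 and Rbms1. For Snrk, a kinase related to AMPK, the 50 bp exon (ENSMUSG00000038145, chr9:122131893-122131942, plus strand) ranged from 0.626 to 0.842, and these extremes were the replicates of ESC. The 56 bp exon of Tor1aip1 (ENSMUSG00000026466, chr1:156019968-156020023, minus strand), which encodes LAP1 of the inner nuclear membrane, ranged from 0.191 in heart to 0.328 in spleen (adjusted p = 0.12, but 0.013 with the replicate block, 0.0167 without spleen replicate 2 and 0.0187 without ESC replicate 1, where it was called). A 59 bp exon of Zfp512, a zinc finger gene (ENSMUSG00000062761, chr5:31453155-31453213), ranged from 0.542 to 0.964, and these extremes were the liver replicates. Rbms1, a single-stranded nucleic acid binding protein, had a 48 bp exon (ENSMUSG00000026970, chr2:60759759-60759806) from 0.207 in liver to 0.398 in ESC (adjusted p = 0.026, and between 0.0521 and 0.203 without lung replicate 2, either spleen replicate or liver replicate 1).

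Whether short exons differ between the alleles was asked in each tissue with the reads that could be assigned to C57BL/6J or SPRET/EiJ. Both alleles share the nucleus, and the part of read assignment between the genomes in a difference was not tested. Tests needed 20 reads per allele and replicate and a PSI of both alleles together within 0.1 of that of all reads. In lung 73 of 2008 members were called (3.64%, against 2.89% of all events), in heart 65 of 1569 (4.14%, against 2.69%), in spleen 59 of 1873 (3.15%, against 2.39%), in kidney 56 of 2145 (2.61%, against 2.15%), in cortex 55 of 1930 (2.85%, against 2.31%), in liver 28 of 1171 (2.39%, against 1.6%) and in ESC 22 of 2094 (1.05%, against 0.759%). The share of members was above that of all events in each of the 7 tissues with both replicates. In cortex and in spleen it was not when replicate 1 of that tissue was left out. All events here include those expressed in fewer than 2 tissues, which members do not. Higher PSI on C57BL/6J was called in 27 members in cortex (1.40%, against 1.38% of all events), 31 in heart (1.98%, against 1.45%), 27 in kidney (1.26%, against 1.23%), 43 in lung (2.14%, against 1.61%), 30 in spleen (1.60%, against 1.36%), 14 in liver (1.20%, against 0.922%) and 10 in ESC (0.478%, against 0.436%). Higher PSI on SPRET/EiJ was called in 28 members in cortex (1.45%, against 0.923%), 34 in heart (2.17%, against 1.24%), 29 in kidney (1.35%, against 0.925%), 30 in lung (1.49%, against 1.28%), 29 in spleen (1.55%, against 1.03%), 14 in liver (1.20%, against 0.675%) and 12 in ESC (0.573%, against 0.323%).

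Both alleles of a library come from the same animal or clone. Fitted with a replicate block for the library, the model gave 89 calls in cortex, 76 in heart, 88 in kidney and 82 in lung. It gave 71 in spleen, 45 in liver and 63 in ESC. Over all events the block gave 837 calls in cortex, 564 in heart, 796 in kidney and 692 in lung. In spleen, liver and ESC it gave 571, 373 and 632. Without the block, all events had 562 calls in cortex, 435 in heart, 524 in kidney and 623 in lung. In spleen, liver and ESC they had 507, 213 and 235. With 1 replicate left out and the spread pooled over the tissues, calls among members numbered 11 to 14 in cortex, 43 to 52 in heart, 25 to 26 in kidney, 28 to 34 in lung, 21 to 30 in spleen, 18 to 21 in liver and 24 to 31 in ESC. The number of calls thus depended on the design, and the named exons below were called in 2 or more tissues or had the largest called difference of a tissue.

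Across tissues, 198 of 3813 members tested were called in 1 or more tissues (5.19%), on 186 exons. The share was 2.61% of all 65721 events tested, of which 31700 were tested in 2 or more tissues. Members had to be expressed in 2 or more tissues and these events did not, so both shares stand on unlike sets. Of the 3057 members tested in 2 or more tissues 16 were called in every tested tissue (0.523%, against 0.568% of all events tested in 2 or more), 160 in some (5.23%, against 3.74%) and 2881 in none (94.2%, against 95.7%). No member was called in opposite directions in different tissues, and 62 were called in 2 or more. Of Non-Differential members 1.64% of 2994 were called. The share was 16.9% of 278 Low, 20.9% of 158 Moderate-Low, 23.2% of 155 Moderate-High and 14.5% of 228 Switch-Like members. Most Non-Differential members were near full inclusion in every expressing tissue, which leaves little room for a called difference between alleles. These shares were not counted for all events. Whether allelic differences go with tissue variation apart from this limit was not tested.

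Tor1aip1 was the member with a nearly complete difference between alleles in all 7 tissues. On the C57BL/6J allele the PSI of its 56 bp exon was between 0 and 0.00963 in the 14 libraries, and on the SPRET/EiJ allele between 0.917 and 1. The ranges did not overlap in any tissue, with differences of -0.952 in ESC to -0.989 in lung and adjusted p between 7.2e-06 in liver and 1.8e-42 in spleen. All reads together had given a PSI of 0.191 to 0.328 in the same 14 libraries.

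A 53 bp exon of Atg7 (ENSMUSG00000030314, chr6:114672791-114672843), the activating enzyme of autophagy conjugation, was also higher on SPRET/EiJ in all 7 tissues. Its PSI ran from 0 to 0.21 on the C57BL/6J allele and from 0.612 to 0.957 on the SPRET/EiJ allele, with 27 to 195 reads per allele and library. The largest difference was -0.861 in cortex (SE 0.039, adjusted p = 3.2e-06) and the smallest -0.571 in liver (SE 0.098, adjusted p = 0.021). Without heart replicate 2 the adjusted p in heart was 0.0803, and with a prior without depth trend that in liver was 0.0599.

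A 54 bp exon of 2210408F21Rik (ENSMUSG00000087380, chr6:31336804-31336857) went the other way in the 5 tissues tested. Its PSI was between 0.574 in heart and 0.856 in cortex on the C57BL/6J allele, and at most 0.0307 on the SPRET/EiJ allele. The C57BL/6J values were lower in heart than in the other tissues, and the difference between alleles ran from 0.574 in heart to 0.846 in cortex.

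Smaller differences were found in Sp100, Helz, Abi3bp and Arhgap44. Sp100, a component of nuclear bodies, had a 54 bp exon (ENSMUSG00000026222, chr1:85681086-85681139) with a PSI of 0.617 to 0.809 on C57BL/6J and 0.0918 to 0.407 on SPRET/EiJ in 5 organs, and the difference of 0.433 in spleen rested on 1496 to 3662 reads per allele and library (SE 0.024, adjusted p = 1.5e-29). The helicase gene Helz had a 57 bp exon (ENSMUSG00000020721, chr11:107555519-107555575) at 0.312 to 0.602 on C57BL/6J and 0.0102 to 0.108 on SPRET/EiJ, in cortex, kidney, spleen and ESC. Abi3bp, an extracellular matrix gene, had a 60 bp exon (ENSMUSG00000035258, chr16:56650711-56650770) at 0.478 to 0.671 on C57BL/6J and 0.964 to 1 on SPRET/EiJ, in heart, lung and spleen. Without replicate 1 or replicate 2 of the tissue, the calls of Helz in cortex, kidney and spleen, of Abi3bp in heart and spleen and of Sp100 in liver were lost, with adjusted p between 0.0584 and 1.

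For Arhgap44, which encodes a GTPase-activating protein, the 52 bp exon (ENSMUSG00000033389, chr11:65005454-65005505) combined a tissue difference with an allelic one. In cortex its PSI was 0.471 and 0.467 on C57BL/6J and 0.201 and 0.199 on SPRET/EiJ, and in kidney 0.972 and 0.938 against 0.317 and 0.448. The differences were 0.399 in heart and 0.532 in lung. In ESC the difference was 0.22 and was not called (adjusted p = 0.7, and 0.027 with the replicate block), with 1 and 0.866 on C57BL/6J against 0.831 and 0.594 on SPRET/EiJ. Without kidney replicate 1 the adjusted p in kidney was 0.279.

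The largest differences in lung, spleen and liver fell in multigene families, where reads of near-identical copies may have been counted for one another, so these values are uncertain. A 45 bp exon of Tcrg-C4 (ENSMUSG00000076757, chr13:19347571-19347615), a constant region of the T cell receptor gamma locus, had a PSI of 0 on C57BL/6J and 1 on SPRET/EiJ in both replicates of lung and spleen, with 20 to 24 reads in lung and 64 to 127 in spleen. A 33 bp exon of H2-Q10 (ENSMUSG00000067235, chr17:35473768-35473800), a class I histocompatibility gene secreted by the liver, had a PSI of 0.991 and 0.992 on C57BL/6J and 0.00132 and 0.00074 on SPRET/EiJ in liver, with 7580 to 25780 reads.

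**Figure D4:**
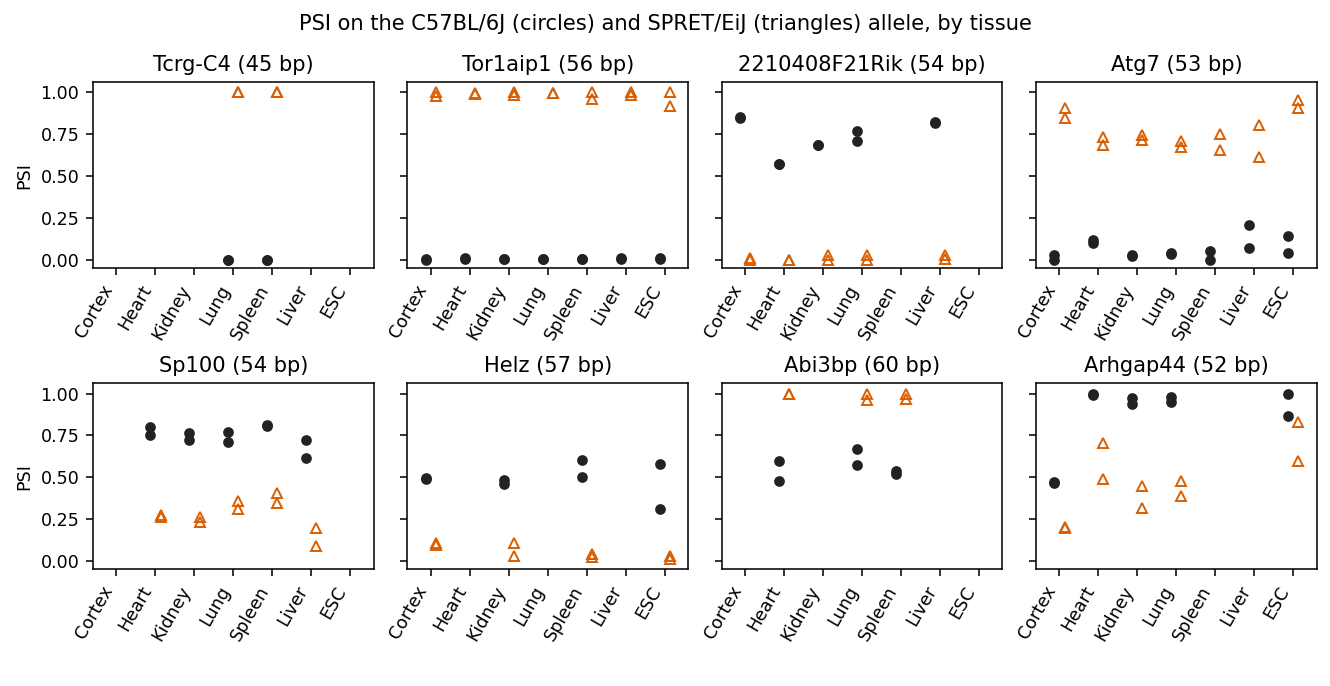
Each panel shows 1 of the 8 exons with the largest mean allelic difference among those called in 2 or more tissues in one direction, with PSI (y axis, 0 to 1) on the C57BL/6J allele (black circles) and the SPRET/EiJ allele (open orange triangles) of both replicates in each tissue tested (x axis). In Tor1aip1 the circles lie at 0 to 0.00963 and the triangles at 0.917 to 1 in all 7 tissues, and in Arhgap44 both alleles are lower in cortex than in heart, kidney and lung.

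Tissue differences of Switch-Like members were also read on each allele. Of the 273 Switch-Like members 127 had enough allelic reads in the highest and the lowest tissue. In all 127 both alleles differed in the direction of all reads, in 113 both alleles differed by 0.5 or more, and in 14 only 1 allele did. Allelic reads are part of all reads, and these members were chosen by a large difference in all reads. Agreement in direction was therefore partly given in advance.

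Fibroblasts treated with pladienolide B gave a readout of the short exons that the choice of members did not use. Of 2709 members tested 227 were called (8.38%, against 8.4% of all 54535 events), 12 higher (0.443%, against 0.171%, and 20 with limma on empirical logits) and 215 lower (7.94%, against 8.23%). The share of short exons that responded was thus close to that of all events. Members had to be expressed in the tissues and the other events did not, so both shares stand on unlike sets. Nearly all called exons were skipped more after treatment. The median PSI of members was 0.994 after DMSO and 0.975 after pladienolide B.

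The share called differed with the PSI in the control. Of 339 members at 0.1 to 0.9 after DMSO 60 were called (17.7%), 52 of them lower, and of 2052 members above 0.9 there were 163 (7.94%), and of 318 members below 0.1 there were 4 (1.26%). Since a call needs a difference of at least 0.1, a member above 0.9 could only be called lower and one below 0.1 only higher. Exons with a length divisible by 3 were called in 8.86% of 1242 and the others in 7.98% of 1467, and by length the share was 6.84% at 31 to 40 bp, 9.47% at 41 to 50 bp and 8.30% at 51 to 60 bp. Of 171 Switch-Like members tested 19 were called (11.1%), and of 2084 Non-Differential members 150 (7.2%). The shares by PSI, frame, length bin and switch score were not counted for all events, of which 8.4% were called. Switch-Like and Non-Differential members were not compared at a like PSI after DMSO.

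The 5 named decreases left a PSI below 0.35 in both treated libraries. A 60 bp exon of Rnf31 (ENSMUSG00000047098, chr14:55592833-55592892), the catalytic subunit of the linear ubiquitin ligase complex, had a PSI of 0.966 and 1 after DMSO and 0.0422 and 0.135 after pladienolide B, a difference of -0.894 (SE 0.041, adjusted p = 2e-25). For Stk17b, a kinase of the death-associated family, the 49 bp exon (ENSMUSG00000026094, chr1:53762589-53762637) went from 1 in both controls to 0.137 and 0.303, while its junction reads went from 1278 and 1321 to 46 and 96. Mki67ip, a nucleolar protein gene, had a 57 bp exon (ENSMUSG00000026377, chr1:118330606-118330662) that went from 1 in both controls to 0.322 and 0.227, with 291 or more reads per library.

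Their switch score was 0.000613 in Rnf31, which was expressed only in kidney and spleen, 0.0109 in Stk17b, expressed only in kidney and ESC, and 0.00285 in Mki67ip, expressed only in lung, spleen and ESC. A 42 bp exon of Mnt (ENSMUSG00000000282, chr11:74837431-74837472), a repressor that binds MAX, went from 0.911 and 0.915 to 0.161 and 0.11. The 58 bp exon of Zfp930, a zinc finger gene (ENSMUSG00000059897, chr8:69226672-69226729), went from 0.856 and 0.896 to 0.0907 and 0.0644, the latter at 33 and 23 reads.

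Increases were fewer and smaller. A 50 bp exon of Anapc16 (ENSMUSG00000020107, chr10:60002418-60002467), a subunit of the anaphase-promoting complex, had a PSI of 0.355 and 0.356 after DMSO and 0.773 and 0.667 after pladienolide B, a difference of 0.365 (SE 0.053, adjusted p = 3.3e-09). The Ptbp2 exon, which varied across tissues, rose from 0.574 and 0.629 to 0.888 and 0.925 (adjusted p = 1.9e-08). A 51 bp exon of Slmap (ENSMUSG00000021870, chr14:26459410-26459460), a membrane protein of muscle and other cells, rose from 0.148 and 0.165 to 0.41 and 0.449.

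In all of these the treated replicates lay above both controls. The same held for a 55 bp exon of Nt5c3, a pyrimidine nucleotidase (ENSMUSG00000029780, chr6:56897775-56897829), at 0.163 and 0.124 after DMSO and 0.281 and 0.329 after treatment. Chka, which encodes choline kinase alpha, had a 54 bp exon (ENSMUSG00000024843, chr19:3875735-3875788) at 0.603 and 0.549 after DMSO and 0.829 and 0.748 after treatment. Its adjusted p of 0.0063 became 0.108 without PladB replicate 1 and 0.08 without DMSO replicate 2.

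**Figure D5:**
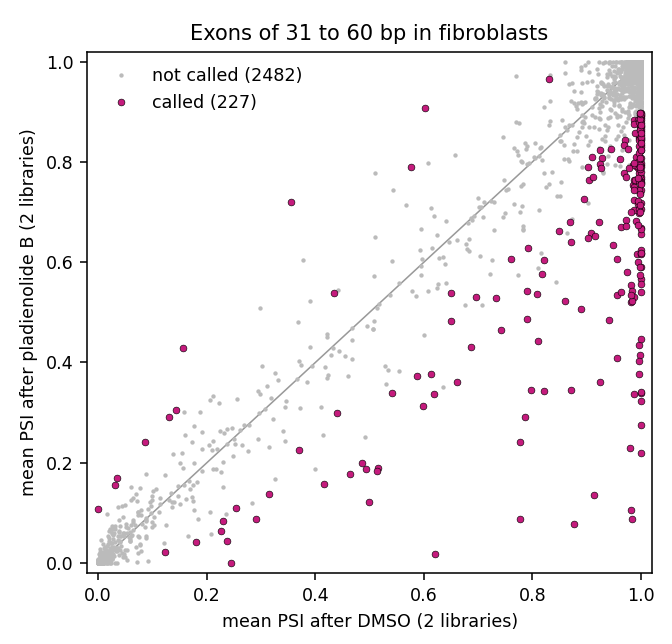
Each point is 1 of 2709 members tested in fibroblasts, with mean PSI over 2 libraries after DMSO (x axis) and after pladienolide B (y axis), both from 0 to 1, the 227 called members in magenta and the grey line marking equal values. Of the called members 215 lie below the line, most of them at a PSI near 1 after DMSO, and 12 lie above it.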

How the data were processed

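Libraries from 7 tissues (14 libraries) and from fibroblasts (4 libraries) were analysed, grouped by their labels. The Methods describe stranded mRNA libraries and take liver from the earlier study. Alignment by the authors used HISAT2 2.0.1 against C57BL/6J (mm10) and a SPRET/EiJ genome. They assigned allelic reads by edit distance, and counted junction reads of annotated SE events (Ensembl 74) with rMATS. Reads of 101 bp from heart, kidney and cortex were trimmed by the authors to 76 bp, the length in spleen, lung and ESC. The Methods do not give the read length of liver. The deposited counts are raw, with both replicates in one list, and the lengths of both forms are given beside them. The deposited TPM values, from featureCounts, served only to check tissue markers. Columns of the authors' own tests and the table of retained introns were not used. Lists were read as replicate 1, then 2, and alleles as C57BL/6J, then SPRET/EiJ, an order that the Methods imply. With it the maternally expressed Meg3 had 95.7% of its allelic reads on C57BL/6J, the mother, and the paternally expressed Snrpn 4.1%.

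PSI was computed as inclusion reads per inclusion form length over the sum of this and skipping reads per skipping form length, and replicates were weighted equally. The inclusion form counts more positions in longer exons, up to a limit, and the lengths correct for it. Counts were fitted with quasi-binomial models over all events, with dispersions moderated by limma 3.58.1 (R 4.3.3) toward a prior that follows depth, with a floor of 1. Tissues and treatments entered without a block. The standard error of a tissue against the others used the larger of 2 binomial variances, at the share of the tissue and of all libraries, chosen on simulated data. With 200 events changed by 0.3 in PSI in simulated data, the allelic tests found 92.5% to 96.5% of them, the test between tissues 96% and that of pladienolide B 98%, and the tissue contrasts found 85% to 100% of the 14 to 31 changed events each could test, with at most 4.17% false calls. The simulation gave every event of a comparison the same fixed spread and drew the alleles of a library independently. The data differ from this, and the standard error was chosen on simulated data, so these rates are no independent check. p-values cover the spread of 2 replicates a group, and counts of reads are not counts of molecules. Alternatives were other minimum reads, another prior, halved inclusion reads, the replicate block, limma on empirical logits and leaving out libraries, and the analysis without ESC was added after seeing the data. Replicate differences of 2 alleles of a library had correlations across events from 0.0153 in lung to 0.536 in ESC, and both alleles come from the same library. The analysis used Python 3.11.15 with numpy 2.4.6, pandas 2.3.3 and scipy 1.17.1.

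Members, gene lists and named exons were chosen with earlier results of these data known. Named, with 1 event per gene (most junction reads), were the 12 called members with the largest switch score, the 3 with the largest difference in each direction per tissue, the 8 with the largest mean allelic difference among those called in 2 or more tissues with one direction, the largest in each tissue, the 5 largest in each direction for pladienolide B, and the 4 most stable. Gene lists are patterns of symbols, and one pattern was edited after the symbols of the files (Epb4.1l1) were seen. The gene symbols of Ensembl 74 were kept. Of the 2925 genes 2913 (99.6%) matched the RefSeq table of GRCm38.p6 and 2873 were protein-coding. No sequence is shown, since no genome was used.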

Additional observations from a re-analysis of the deposited data

How the results depend on the processing

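No difference of a named exon in a tissue contrast, between alleles or after pladienolide B reversed its sign. The switch score cannot be negative, so it could not reverse. The total counts of calls between tissues and after pladienolide B stayed within 1.5 times of those above under the alternatives tried. By direction, limma on empirical logits gave 20 higher calls after pladienolide B in place of 12, and leaving out heart replicate 2 gave 69 lower calls in heart in place of 106, while 14 libraries left out in turn gave 717 to 859 calls between tissues. With 1 replicate of the tissue left out the calls were 344 to 356 in cortex, 215 to 225 in heart, 146 to 151 in kidney, 113 to 116 in lung, 134 to 135 in spleen, 104 to 107 in liver and 252 to 268 in ESC, and 176 to 231 after pladienolide B with 1 library left out. A lone library was assumed to vary like the others. The Switch-Like share was 5.98% to 6.27% from 1 replicate, 7.1% with no minimum beyond 1 read, and 17.4% when only members not near 0 or 1 in every tissue were counted.

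Allelic counts moved most. limma on empirical logits gave 90 calls in cortex, 95 in kidney, 106 in spleen and 52 in liver, and a prior without depth trend gave 17 in liver. The replicate block gave 89 in cortex, 88 in kidney, 45 in liver and 63 in ESC. Leaving out 1 replicate, with the spread pooled over tissues, gave 11 to 14 in cortex, 43 to 52 in heart, 25 to 26 in kidney, 28 to 34 in lung, 21 to 30 in spleen, 18 to 21 in liver and 24 to 31 in ESC. The cause was not tested. Between tissues the replicate numbers share no stated animal, and the replicate differences had correlations from -0.102 to 0.0796 over 21 pairs of tissues, so the block is given only here. It kept the tissue and pladienolide B counts within 1.5 times.

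Over the named exons, leaving out libraries lost 28 calls, gained 2 and kept 412 results on their side of the threshold, and the other settings lost 7, gained 2 and kept 587. These results include those of the test between tissues, whose switch score has no sign. With 2 replicates a group and few reads in some tissues, small differences were not detectable.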

Other observations

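Several genes carried more than 1 Switch-Like short exon. There were 23 such genes, chosen after the values were seen, of which Dedd and Uap1 held overlapping forms of 1 exon and the other 21 had separate exons. In Rbfox1, a splicing regulator of neurons and muscle, a 40 bp exon (chr16:7363865-7363904) averaged 0.964 in cortex and 0.294 in heart, and a 43 bp exon (chr16:7369801-7369843) averaged 0.129 and 0.879. Asph, an aspartyl hydroxylase gene, had a 45 bp exon (chr4:9637659-9637703) at 0.876 in cortex and at most 0.0414 elsewhere, and a 42 bp exon (chr4:9624360-9624401) at 0.689 in heart and at most 0.0806 elsewhere. Both genes had exons that were highest in different tissues.

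In other genes the exons led in the same tissue. In Camk2d, the calcium/calmodulin-dependent kinase of heart muscle, a 60 bp exon (chr3:126805857-126805916) had 0.987 in cortex and 0.127 in heart, while a 42 bp exon (chr3:126808208-126808249) had 0.834 and 0.717. Synj1, the lipid phosphatase of synaptic vesicles, had 3 such exons with mean PSI between 0.738 and 0.804 in cortex, and 2 of them were expressed in no tissue but cortex and ESC, where they had 0.0726 and 0.00991. Mllt4 (afadin, a protein of cell junctions) had a 45 bp exon at 0.816 and a 36 bp exon at 0.727 in cortex, both at most 0.0604 elsewhere. In Sorbs2, an adaptor of muscle Z-discs, a 45 bp and a 57 bp exon were highest in heart, at 0.965 and 0.738. These are means over 2 replicates without a test.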
